A study of Mus musculus with 2 samples.

Results

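The DNA methylation machinery was followed through 10 genes chosen by name, all of which were present among the 24421 gene symbols counted. They are the DNA methyltransferases *Dnmt1*, *Dnmt3a*, *Dnmt3b* and *Dnmt3l*, the maintenance cofactor *Uhrf1*, the dioxygenases *Tet1*, *Tet2* and *Tet3*, and the isocitrate dehydrogenases *Idh1* and *Idh2*. RNA was sequenced from hematopoietic stem cells (HSCs) sorted as CD150+CD48-CD34-Flt3- LSK cells, where LSK stands for marrow cells that lack lineage markers and carry Sca-1 and c-Kit. Marrow of CD45.2 donors on a C57BL/6 background had first been placed in lethally irradiated CD45.1 hosts. Donors of both groups carried 1 copy of Cre-ERT, a recombinase that tamoxifen switches on, with *Ezh2* +/+ in the WT group and floxed *Ezh2* (Δ/Δ after deletion) in the other. Hosts of both groups received 100 µl of tamoxifen at 10 mg/ml on each of 5 days, and cells were taken 1 month later. The labels do not give the promoter of the Cre-ERT transgene, the ages or the number of mice, and the sorting markers they list hold no CD45 allele, which would separate donor cells from remaining host cells.

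Each group had 1 library, so the spread between animals was not measured and every difference below is between 2 libraries, not between conditions. Gene totals were 5763118 counts in WT against 4157280 in the library labelled Ezh2 KO, and the limit of 3 counts, at or under which a gene was taken as not detected, corresponded to 0.521 and 0.722 CPM, counts scaled to a library total of 1000000. Intervals cover counting error only and take each read as independent. Reads copied by PCR and carrying no molecular identifier are not independent molecules, so the intervals can be too narrow even for that error. *Ezh2*, the gene targeted, had 166 counts in WT against 129 in the other library (142.5 and 150.3 after division by size factors that put both libraries on 1 scale, here called normalised counts), so the deletion was not visible in whole-gene counts, which do not separate deleted from retained exons. That library is therefore called the KO-labelled library. The libraries also differed in sex-linked RNA, with 801 and 4 counts of *Xist* and with 0 against 106 to 275 counts for each of 4 Y-linked genes; the 10 genes studied here are autosomal. All 15 HSC markers were above 3 counts in both libraries, among them *Procr* (1128 and 1199 normalised counts). Log2 ratios of the KO-labelled library over WT were below 0 for 11, as for 6344 of the 12588 genes averaging 1 CPM or more. Intervals lay below 0 for 5 (20.8% of those genes) and above 0 for 2 (19.2%). *Mycn* was past 2-fold lower (5097 and 2423), and *Slamf1*, which encodes the sorting marker CD150 (446 and 289), *Fgd5* (523 and 348) and *Ctnnal1* (227 and 139.8) also had intervals below 0. Of other cell types, the summed level of 14 granulocyte markers was 2102 CPM in WT against 4689 CPM in the KO-labelled library. *Ngp* (2187 and 5385 normalised counts), *S100a8* (1369 and 2947), *S100a9*, *Ltf*, *Camp* and *Lcn2*, of neutrophils, were higher there, with log2 ratios from 0.96 to 1.30. *Prg2*, *Epx* and *Prg3*, of eosinophils, were at 0 counts in WT against 2030, 1000 and 116. The list did not move as 1, since *Elane*, of primary granules, had 738 and 436 normalised counts (log2 ratio -0.76, interval -0.94 to -0.58). The intervals of *Prtn3* (-0.07) and *Ctsg* (-0.01) held 0, and *Mpo*, also of primary granules, was at 0.22 (0.12 to 0.32). The 10 erythroid markers summed to 72.5 and 225 CPM, the 10 B lymphoid markers to 48.4 and 95.7 CPM, the 9 T and natural killer cell markers to 41.0 and 41.4 CPM, and the 10 monocyte and dendritic cell markers to 1230 and 881 CPM. The B lymphoid sum was mostly *Cd79b* (251 and 229 counts). Within the T and natural killer cell sum, *Klrb1c* had 116 and 14 counts and *Il2rb* 0 and 34. The monocyte and dendritic cell sum was mostly *Cd74* (6892 and 3516 counts), while *Itgax* had 0 and 7 counts and *Adgre1* 0 and 9. Except for *Mycn*, *Ngp*, *S100a8*, *Ltf*, *Camp*, *Lcn2*, *Prg2*, *Epx*, *Prg3*, *Klrb1c*, *Il2rb* and *Adgre1*, these markers were named after their values were seen. Their part in the values below was not tested, and in sorted bulk RNA fewer cells of a type and less RNA per cell cannot be told apart.

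In mammals, methyl groups are placed on cytosines of CpG dinucleotides. DNMT1 copies the pattern onto the new strand after replication, guided by UHRF1, which binds hemimethylated CpGs, whereas DNMT3A and DNMT3B write new marks and DNMT3L, which lacks activity of its own, stimulates them. TET enzymes oxidise the mark as a step towards its removal, and they consume 2-oxoglutarate, the product of IDH1 in the cytosol and of IDH2 in mitochondria. In blood, *DNMT3A*, *TET2*, *IDH1* and *IDH2* are known as genes mutated in myeloid disease, and loss of DNMT3A or TET2 is known to favour self-renewal of HSCs over differentiation.

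The 9 genes that averaged 1 CPM or more differed little between the libraries, and *Dnmt3l* was not detected. Differences are given as log2 ratios of the normalised count plus 1, the KO-labelled library over WT. They ran from -0.20 for *Dnmt3a* to 0.37 for *Idh1*, with a median of 0.014 beside -0.0032 for all 12588 genes at that level. All 9 lay within 1.5-fold, as did 79.5% of all genes. None of the 9 was at least 2-fold higher in the KO-labelled library, against 4.91% of all genes, and none was at least 2-fold lower, against 3.9%. The 95% counting interval lay above 0 for *Idh1* alone, against 19.2% of all genes, and below 0 for *Dnmt1* alone, against 20.8%. With 9 genes, counts of this size are no result about the set. With an assumed coefficient of variation (CV) of 0.2 between libraries in place of counting error only, 0 of the 9 intervals lay off 0.

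**Figure D1:**
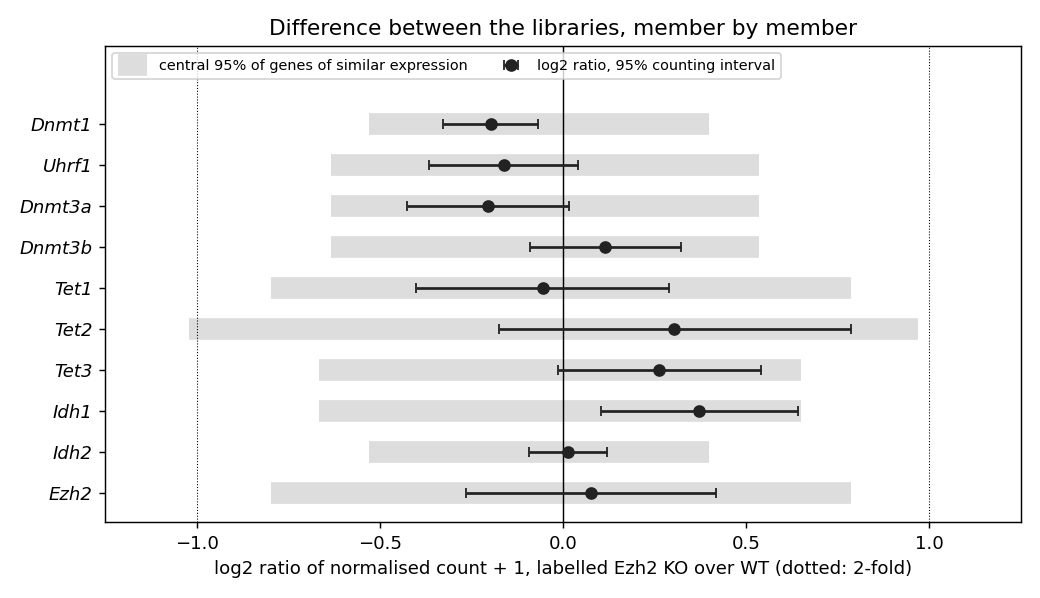
Log2 ratio of the normalised count plus 1, KO-labelled library over WT, for the 9 members at or above 1 CPM on average and for *Ezh2*. Points are ratios of 1 library to 1 library, whiskers are 95% counting intervals, grey bars span the central 95% of genes in the same expression group (1 of 10 equal groups by mean level) and dotted lines mark 2-fold; every point lies inside its grey bar.

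In level, the genes formed a wide range. CPM per kilobase of exon, the scale used for comparisons between genes, placed *Idh2* first in both libraries at 113 (95% Poisson interval 108 to 119) in WT and 117 (110 to 123) in the KO-labelled library. It exceeded 97.2% and 97.1% of detected genes. *Dnmt1* followed at 28.9 and 25.7, and its interval overlapped no neighbour in either library. *Uhrf1* (20.5 and 18.8), *Dnmt3b* (15.0 and 16.6) and *Idh1* (14.8 and 19.6) came next. *Dnmt3b* and *Idh1* had overlapping intervals in WT; in the other library *Idh1* and *Uhrf1* overlapped, as did *Uhrf1* and *Dnmt3b*. *Dnmt3a* stood lower at 4.54 and 4.02. The TET genes were lowest among those detected, in the order *Tet3* (2.42 and 2.97), *Tet1* (1.93 and 1.90) and *Tet2* (0.813 and 1.03). *Tet3* and *Tet1* overlapped in WT but not in the other library. These levels divide by all annotated exon bases, 15457 to 16870 for the 3 TET genes and 16642 for *Dnmt3a*, and fall where long annotated isoforms are little used. With the longest single transcript as length, only *Dnmt3b* and *Idh1* changed places, in WT.

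**Figure D2:**
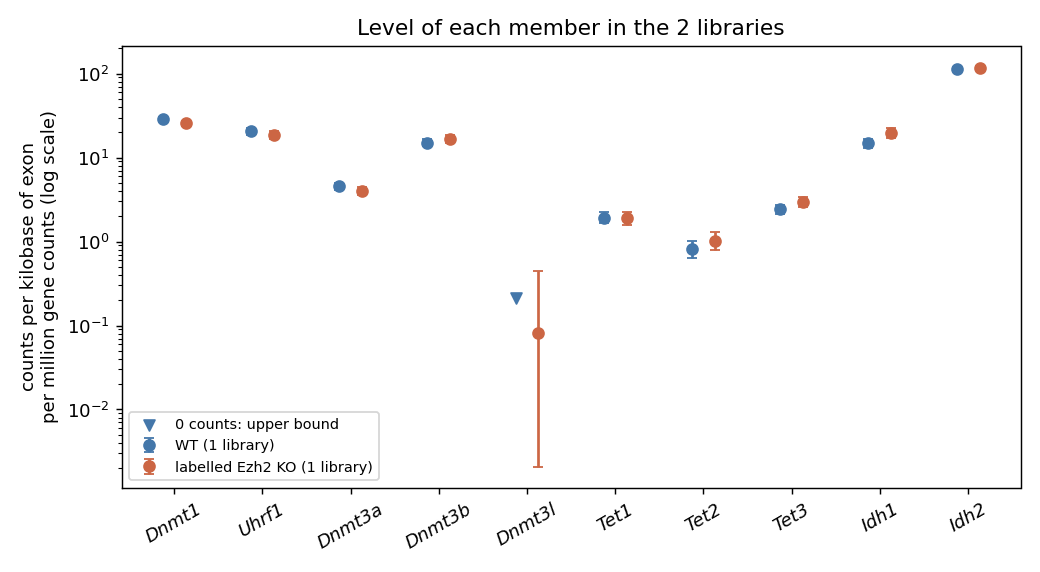
Level of each of the 10 genes as CPM per kilobase of exon, on a log axis, in the WT library and the KO-labelled library. Points are single libraries with exact 95% Poisson intervals and the triangle is the upper bound for 0 counts; *Idh2* is highest at 113 and 117, and *Dnmt3l* lies below all others.

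Of the maintenance pair, *Dnmt1* had an interval below 0 and that of *Uhrf1* held 0. *Dnmt1* (chromosome 9, 20907209 to 20959888 in mm10, minus strand, protein coding) had 1227 counts in WT against 788 in the KO-labelled library, or 1053 and 918 normalised counts, a log2 ratio of -0.20 (95% counting interval -0.33 to -0.07). When genes were ranked by mean level and cut into 10 equal expression groups, the central 95% of the group that held *Dnmt1* ran from -0.53 to 0.40, so the difference exceeded counting error but not the spread between these libraries. *Uhrf1* (chromosome 17, 56303321 to 56323486, plus strand) had 504 and 332 counts, or 433 and 387 normalised counts, a log2 ratio of -0.16 (-0.37 to 0.04). Within each library the proportion between the pair was close: *Uhrf1* made up 29.1% (95% Wilson interval 27.0% to 31.3%) of their joint counts in WT and 29.6% (27.0% to 32.4%) in the other library.

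Among the members, this pair also had a promoter feature in common. Promoter windows of RefSeq (GRCm38.p6, 250 bases before to 50 after each annotated start) were found for all 10 genes, 18 windows in all, and were searched on both strands for an E2F motif, spelled TTTCCCGC, TTTGGCGC or TTTCGCGC. E2F factors are known to drive genes of DNA replication. The motif was in windows of *Dnmt1* and *Uhrf1* and of no other member. It was in 1.84% of all 32851 windows and in windows of 2.12% of all genes. A match is a description of the letters and not a site of binding. The stretches below hold it in capitals, at 219 bases before a start of *Dnmt1* (reverse strand; 30 bases shown) and 185 bases before a start of *Uhrf1* (forward strand; the 250 bases before the start shown). The *Dnmt1* match shown lies in an exon of a transcript with another start. The same window held a second match just after the start.
*Dnmt1*, chr9:20952824-20952853, minus strand: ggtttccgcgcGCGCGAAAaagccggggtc
*Uhrf1*, chr17:56304063-56304312, plus strand: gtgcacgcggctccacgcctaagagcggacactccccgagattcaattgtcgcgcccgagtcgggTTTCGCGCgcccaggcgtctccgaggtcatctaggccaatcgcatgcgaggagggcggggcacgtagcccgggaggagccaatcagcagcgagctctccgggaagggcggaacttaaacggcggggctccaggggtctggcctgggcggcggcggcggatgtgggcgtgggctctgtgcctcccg

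Genes of S phase and mitosis, taken as 1 list, were evenly split. Of 30, 15 had log2 ratios above 0 and 15 below, with a median of 0.0039. The interval lay above 0 for 7 of the 30, against 19.2% of all genes, and below 0 for 9, against 20.8%. Within the list, the 6 genes *Mcm2* to *Mcm7* of the replicative helicase all had log2 ratios below 0, with intervals below 0 for *Mcm2* (-0.41), *Mcm5* (-0.39), *Mcm6* (-0.30) and *Mcm7* (-0.19). The subunits of ribonucleotide reductase, which makes deoxynucleotides, lay on opposite sides, *Rrm1* at -0.21 (-0.36 to -0.06) and *Rrm2* at 0.47 (0.20 to 0.75). Of other genes in the list, intervals above 0 included those of *Birc5* (0.74), *Ccnb1* (0.72), *Aurka* (0.52) and *Top2a* (0.38). Intervals below 0 included those of *Aurkb* (-0.43) and *Cdk1* (-0.38). The helicase and reductase genes and these other genes were named after their values were seen. *Mki67*, a proliferation marker, had 37.8 normalised counts in WT against 83.9 in the KO-labelled library (log2 ratio 1.13, interval 0.59 to 1.73). *Bub1*, of the spindle checkpoint, had 76.4 and 24.5 (-1.60, -2.40 to -0.94). The 10 E2F and DP factors had a median of -0.0092, with *E2f2*, an activator E2F, at 34.3 and 80.4 normalised counts (1.20, 0.65 to 1.83) and the other 9 within 2-fold.

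Partners of maintenance methylation had a median below that of all genes. Of 14 that averaged 1 CPM or more, 10 had a log2 ratio below 0, as did 6344 of all 12588 genes, and the median was -0.14; the interval lay below 0 for 5 (20.8% of all genes) and above 0 for 1 (19.2%), and 0 passed 2-fold in either direction (3.9% lower and 4.91% higher among all genes). *Hells*, a chromatin remodeller needed for DNA methylation, had 141.6 normalised counts in WT against 78.1 in the KO-labelled library (log2 ratio -0.85, -1.29 to -0.44). *Cdca7*, which recruits HELLS to chromatin, had 1278 and 888 (-0.52, -0.65 to -0.40), and its paralogue *Cdca7l* had 1139 and 788 (-0.53, -0.67 to -0.40). The other intervals below 0 were those of *Fen1* (-0.40) and *Hdac2* (-0.32). The interval above 0 was that of *Paf1*, at the upper end, with 379 and 442 (0.22). *Paf1* encodes a subunit of a transcription elongation complex and is not an established partner of maintenance methylation. The counts and the median of this list include it. *Uhrf2*, the paralogue of *Uhrf1*, had a log2 ratio of -0.16 and *Pcna*, the replication clamp, of -0.07, both with intervals that held 0. Except for *Hells* and *Paf1*, the genes of this paragraph were named after their values were seen.

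The *de novo* methyltransferases *Dnmt3a* and *Dnmt3b* had near equal counts in WT. *Dnmt3a* (chromosome 12, 3806007 to 3914443, plus strand) had 435 counts in WT against 278 in the KO-labelled library, or 373 and 324 normalised counts, a log2 ratio of -0.20 (-0.43 to 0.02). *Dnmt3b* (chromosome 2, 153649450 to 153687730, plus strand) had 441 and 352 counts, or 378 and 410.2 normalised counts, a log2 ratio of 0.12 (-0.09 to 0.32). Each interval held 0, and both genes lay in an expression group whose central 95% ran from -0.63 to 0.53. *Dnmt3a* took 49.7% (46.4% to 53.0%) of the joint counts in WT and 44.1% (40.3% to 48.0%) in the other library, a log2 odds ratio of -0.32 (exact 95% interval -0.63 to -0.02). Per kilobase of exon that share was 23.2% and 19.5%. The robust SD of single-gene log2 ratios in their expression group was 0.25, and the shift in share was not tested against that spread. Of the exon bases of *Dnmt3a*, 133 are shared with an antisense gene, *Dnmt3aos*, and the library kit does not mark strand, so reads there cannot be told apart.

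*Dnmt3l* (chromosome 10, 78041947 to 78063622, plus strand), the inactive cofactor known mainly from germ cells, had 0 counts in WT against 1 in the KO-labelled library. Both are at or under the detection limit of 3 counts, so no fold is given. Its 3 promoter windows held 3 to 6 CpGs, whereas 8 of the 10 genes had a window with at least 20, as did 28.8% of all genes. The exception besides *Dnmt3l* was *Tet1*, with 17 in its single window. A contrast is shown with CpGs in capitals, the exon-free 151 bases before the first listed start of *Dnmt3l* against the 250 bases before the start of *Tet2*, whose window of 57 CpGs had more than 99.8% of all windows.
*Dnmt3l*, chr10:78042136-78042286, plus strand: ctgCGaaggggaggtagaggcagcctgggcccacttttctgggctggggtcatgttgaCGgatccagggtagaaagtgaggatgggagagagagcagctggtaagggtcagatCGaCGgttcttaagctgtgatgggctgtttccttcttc
*Tet2*, chr3:133544391-133544640, minus strand: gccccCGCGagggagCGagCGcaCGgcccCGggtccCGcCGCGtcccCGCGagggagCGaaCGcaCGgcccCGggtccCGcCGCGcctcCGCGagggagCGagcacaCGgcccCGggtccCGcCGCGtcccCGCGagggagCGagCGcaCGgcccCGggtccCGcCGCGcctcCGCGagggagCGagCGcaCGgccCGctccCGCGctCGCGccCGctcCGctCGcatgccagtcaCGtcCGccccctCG

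The TET dioxygenases had the lowest counts of the detected genes and the widest intervals. *Tet3* (chromosome 6, 83362373 to 83459084, minus strand) had 233 counts in WT against 206 in the KO-labelled library, or 199.9 and 240.1 normalised counts, a log2 ratio of 0.26 (-0.01 to 0.54). Under scaling by total counts its interval moved off 0 (0.016 to 0.57). *Tet2* (chromosome 3, 133463679 to 133545139, minus strand) had 79 and 72 counts, or 67.8 and 83.9 normalised counts, a log2 ratio of 0.30 (-0.17 to 0.79). *Tet1* (chromosome 10, 62804570 to 62908996, minus strand) had 172 and 122 counts, or 147.6 and 142.2 normalised counts, a log2 ratio of -0.05 (-0.40 to 0.29). Differences inside those intervals were not detectable at this depth. *Tet3* made up about as much of the family as the others together, with 48.1% (43.7% to 52.6%) of joint counts in WT and 51.5% (46.6% to 56.4%) in the other library. *Tet2* made up 16.3% (13.3% to 19.9%) and 18.0% (14.5% to 22.1%), and *Tet1* 35.5% (31.4% to 39.9%) and 30.5% (26.2% to 35.2%); the odds intervals of all 3 shares held 0 on the log2 scale.

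Erasers were also set against writers within each library, a comparison free of scaling that was chosen after the single values were seen. The 3 TET genes took 18.7% (17.3% to 20.3%) of the counts of *Tet1*, *Tet2*, *Tet3*, *Dnmt1*, *Dnmt3a* and *Dnmt3b* in WT and 22.0% (20.2% to 24.0%) in the KO-labelled library, a log2 odds ratio of 0.29 (0.07 to 0.51). Pooled, the 3 methyltransferases went from 1805 to 1652 normalised counts (log2 ratio -0.13, -0.23 to -0.03) and the TET genes from 415 to 466 (0.17, -0.03 to 0.36). *Dnmt1* gave 1227 of the 2103 methyltransferase counts in WT. *Dnmt3b* (0.12) and *Tet1* (-0.05) each lay on the other side of 0 from their pool. The shift in the TET share was not tested against the spread between libraries. Of 7 shares computed within families, 4 of them (this one and those of *Tet1*, *Tet3* and *Uhrf1*) chosen after values were seen, 3 had odds intervals off 0, and the intervals were not adjusted for their number.

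**Figure D3:**
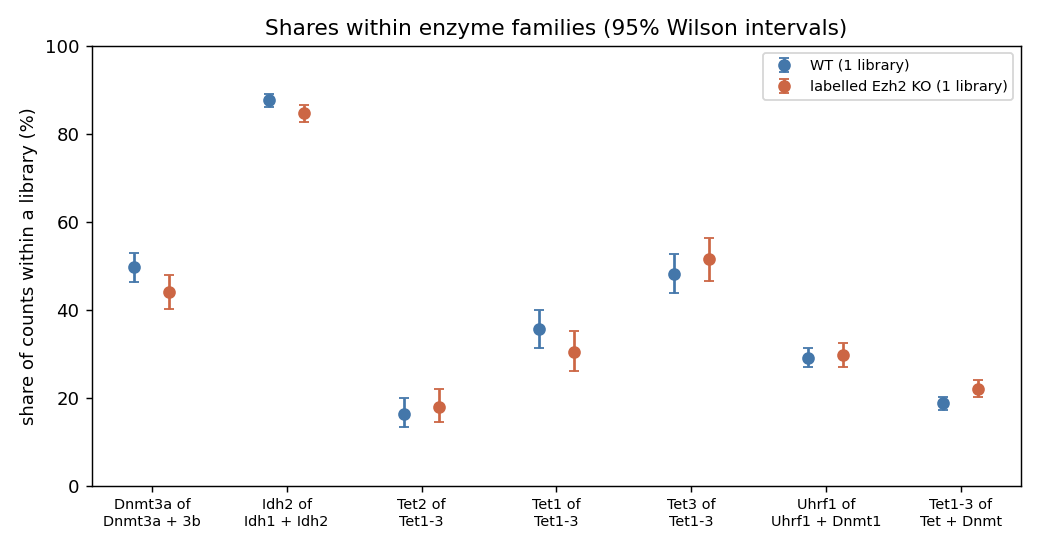
Share of counts within a library, in percent, for the named gene among its family, in WT and in the KO-labelled library. Points are single libraries with 95% Wilson intervals; the share of *Idh2* is above 80% in both and the TET share against the methyltransferases is 18.7% and 22.0%.

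Of the isocitrate dehydrogenases, *Idh1* stood higher in the KO-labelled library and *Idh2* was nearly level. *Idh1*, the cytosolic enzyme (chromosome 1, 65158616 to 65186500, minus strand), had 237 counts in WT against 226 in the KO-labelled library, or 203 and 263 normalised counts, a log2 ratio of 0.37 (0.10 to 0.64). This was the largest difference among the 9 genes; in its expression group 73.6% of genes differed by less, and the central 95% ran from -0.67 to 0.65. *Idh2*, the mitochondrial enzyme (chromosome 7, 80094846 to 80115392, minus strand), had 1686 and 1254 counts, or 1447 and 1461 normalised counts. Its log2 ratio was 0.01 (-0.09 to 0.12), the narrowest interval of the set. *Idh2* took 87.7% (86.1% to 89.1%) of the joint counts in WT and 84.7% (82.8% to 86.5%) in the other library, a log2 odds ratio of -0.36 (-0.65 to -0.07). The robust SD of single-gene log2 ratios in the expression group of *Idh1* was 0.34, and the shift in share was not tested against that spread.

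Around them, 28 genes of isocitrate, 2-oxoglutarate and the tricarboxylic acid cycle had a median log2 ratio of -0.06. Of these, 19 were below 0 and 9 above, beside 6344 and 6244 of all 12588 genes. The interval lay below 0 for 9 of the 28 (20.8% of all genes) and above 0 for 2 (19.2%), and 0 passed 2-fold (3.9% lower and 4.91% higher among all genes). *Psat1*, a serine synthesis enzyme that makes 2-oxoglutarate, had 599 normalised counts in WT against 385 in the KO-labelled library (log2 ratio -0.64, -0.83 to -0.45). *Idh3g*, a subunit of the NAD-dependent isocitrate dehydrogenase and X-linked, had 860 and 1046 (0.28, 0.15 to 0.41). *D2hgdh*, which clears the 2-hydroxyglutarate that can inhibit TET enzymes, had 376 and 310.0 (-0.28, -0.50 to -0.05), and was named after its value was seen.

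Readers and repair enzymes were next. The 15 readers of methylated or unmethylated CpGs averaging 1 CPM or more had a median of -0.03, with 7 above 0 and 8 below. Of all 12588 genes, 6244 were above 0 and 6344 below. The interval lay above 0 for 2 readers (19.2% of all genes) and below 0 for 2 (20.8%). Past 2-fold were 0 readers, against 4.91% of all genes higher and 3.9% lower. Their extremes among well counted genes were *Mbd4*, a glycosylase (-0.38, -0.80 to 0.02), and *Cxxc1*, which binds unmethylated CpGs (0.24, 0.06 to 0.42). The 16 partners of base excision and demethylation had a median of -0.07, and 0 passed 2-fold (4.91% higher and 3.9% lower among all genes). Their intervals lay below 0 for 4 (20.8% of all genes) and above 0 for 1 (19.2%). *Hmces* had 169.9 normalised counts in WT against 90.9 in the KO-labelled library (-0.90, -1.30 to -0.52), and *Apex1*, the abasic site nuclease, had 759 and 817 (0.11, -0.04 to 0.25). *Ogt*, a TET partner on the X chromosome named after its value was seen, had 527 and 298 (-0.82, -1.04 to -0.61); the difference in sex-linked RNA stands beside it and its part was not tested. *Tdg*, the glycosylase that removes oxidised cytosines, had 1 and 2 counts, but a processed pseudogene copy is annotated, so its counts are uncertain.

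**Figure D4:**
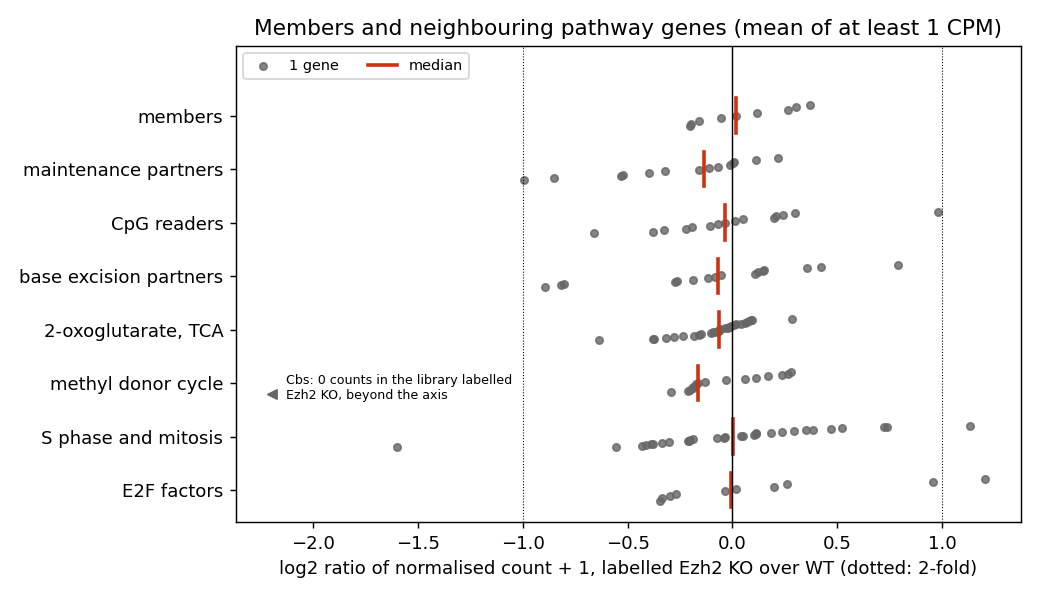
Log2 ratio of the normalised count plus 1, KO-labelled library over WT, for genes averaging 1 CPM or more in the 10-gene set and in 7 lists around it. Dots are genes, red bars are medians (0.014 for the members, -0.14 for maintenance partners), dotted lines mark 2-fold and the arrow stands for *Cbs*, which had 16 and 0 counts.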

How the data were processed

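RNA-seq counts of 1 WT library and 1 library titled Ezh2 KO were analysed, grouped by their titles. The deposited values are raw counts per gene symbol. Per the labels and the study's methods, the authors used mm10, TopHat2 2.0.13, Bowtie2 2.1.0 and StringTie, but each file ends with 5 entries in the style of htseq-count, so the counting program is not settled. Those entries (56.1% of WT and 56.9% of the other file) were left out of gene totals. The largest, for reads in no annotated feature, held 44.9% of WT and 44.1% of the other file. The strand setting of the counting is not settled either, and its part in these shares was not tested.

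Counts were divided by DESeq2 1.42.0 size factors (1.17 and 0.858). No test between conditions was possible with 1 library per group. Log2 ratios of the normalised count plus 1 were given exact (Clopper-Pearson) 95% intervals of the conditional binomial share, without the added 1, and were set beside genes of the same expression group (10 equal groups by mean level). Only genes with a mean of at least 1 CPM were summarised. Shares have Wilson intervals, odds ratios exact conditional ones. Positions and exon lengths come from GENCODE M21 (GRCm38), matching 24044 symbols: 23376 current, 668 older. Scripts ran in R 4.3.3 (with edgeR 4.0.16 for TMM) and in Python 3.11.15 with scipy 1.17.1, numpy 2.4.6 and pandas 2.3.3; plots used matplotlib 3.10.9.

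The 10 genes and the 14 lists around them were chosen with earlier results of these data known. In each list, genes past 2-fold with an interval off 0 were to be named, or else the highest and lowest among genes averaging 100 normalised counts or more; marker lists are given as sums, and not every gene the rule selects is described. No gene was picked by likeness of pattern, since 2 libraries give 1 ratio per gene.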

Additional observations from a re-analysis of the deposited data

Results flagged for a closer look

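Entries for reads that aligned at several places, and so were assigned to no gene, were 12.3% of the total in the library labelled Ezh2 KO (95% Wilson interval 12.25% to 12.29%) against 10.7% (10.73% to 10.77%) in WT. This is a signal outside the gene counts, above its level in the WT library, and its part in the values of the 10 genes was not tested.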

How the results depend on the processing

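The 63 recomputed log2 ratios of the 9 genes, under TMM or total-count scaling, size factors without X and Y or without lineage markers, pseudocounts of 0.5 and 5, and thinning of WT, all kept their sign and stayed within the reported intervals, moving by at most 0.21. *Dnmt1* and *Idh1* had intervals off 0 in each, joined by *Tet3* under total-count scaling; their number fell from 2 to 0 with an assumed CV of 0.2 and to 0 with a CV of 0.4. Without a filter on low counts, 1 gene passed 2-fold, *Dnmt3l*, on 0 and 1 counts; with a threshold of 1.5-fold or a minimum of 10 CPM none did. The *Dnmt3a* share was 23.2% (WT) and 19.5% per kilobase of exon. With a minimum of 10 CPM, median log2 ratios were 1.67 for erythroid, 0.31 for B lymphoid and -1.09 for T and natural killer cell markers, against 1.06, 3.20 and 1.94, because fewer genes were left. The B lymphoid value was then that of *Cd79b* alone. The T and natural killer cell value lay midway between *Klrb1c* (-2.54) and *Nkg7* (0.35). No paired analysis was possible because WT and Ezh2 KO are single libraries; for the same reason no replicate could be left out. *Dnmt3l*, with 0 and 1 counts, could not be compared at this depth.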

Other observations

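Genes that supply methyl groups had a median log2 ratio below that of all genes. Of 17 genes of the S-adenosylmethionine and folate cycles averaging 1 CPM or more, 11 had log2 ratios below 0 and 6 above, beside 6344 and 6244 of all 12588 genes, with a median of -0.16 beside -0.0032. The interval lay below 0 for 6 (20.8% of all genes) and above 0 for 2 (19.2%), which were *Mat2b* (0.24) and *Mthfd1* (0.27). Past 2-fold, 1 gene was lower (3.9% of all genes) and 0 were higher (4.91%). The gene past 2-fold was *Cbs*, which diverts homocysteine from the cycle, with 16 counts in WT against 0 in the other library and the upper end of its interval at -1.51. *Mat2a*, the main enzyme making S-adenosylmethionine outside the liver, had 2112 and 2070 normalised counts (-0.03, -0.12 to 0.06) and, like *Mat2b* and *Mthfd1*, was named after its value was seen.

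Germline genes known to be kept silent by promoter methylation were nearly absent. Of 25 counted, 18 had 0 counts in both libraries, as did 9566 of all 24421 genes. More than 3 counts were seen for 3 genes in WT against 1 in the library labelled Ezh2 KO. Among all genes those numbers were 12935 and 12749. The WT library was also deeper, with 5763118 gene counts against 4157280. The 3 germline genes were *Ddx4* (11 counts in WT against 0 in the other library), *Brdt* (9 and 0) and *Sycp3* (9 and 7), named after their values were seen.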
